A study of Arabidopsis thaliana with 24 samples.

Results

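The transcripts described here are those of the Arabidopsis mitochondrial genome, taken as every gene identifier that starts with ATMG and has 24 or more counts summed over 24 libraries. This rule gave 145 of the 146 ATMG identifiers, out of 33602 genes in the count table. The excluded identifier, ATMG00800, had 17 counts in all, and the member with the fewest, ATMG01070, had 80. All 145 members passed the filter on low counts and were tested. Together they held 8197352 counts, 4.93% of all counts in the table.

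The plant mitochondrial genome encodes a small set of proteins: subunits of the respiratory chain complexes and of ATP synthase, factors that attach haem to cytochrome c, and proteins of the mitochondrial ribosome, next to ribosomal and transfer RNAs and open reading frames of unknown role. These RNAs are translated inside the organelle on mitochondrial ribosomes. RPL18, the protein tagged in this study, is part of the cytosolic ribosome, which translates the nuclear genes for most respiratory chain subunits. In the reference strain a large copy of the mitochondrial genome also lies in nuclear chromosome 2.

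Ribosomes were pulled down from roots with an anti-FLAG resin through a His- and FLAG-tagged RPL18 (HF-RPL18), and the bound RNA was sequenced. In the 5 layer lines a promoter of one root layer drove the transgene: that of ACR4 for the columella, of SHR for the stele, of SCR for the endodermis, of CO2 for the cortex and of WER for the epidermis. In the sixth line it was driven by the viral 35S promoter. Each of these 6 lines was made in the hyl1 mutant and in its wild type, Columbia-0 (Col0), with 2 libraries for each of the 12 groups. HYL1 is a partner of Dicer-like enzymes in microRNA processing. All plants carried HF-RPL18, were grown on plates at 22 °C and were taken after 6 days in light, with about 20 plates pooled for each sample. The sources used here give neither the hyl1 allele nor the number of transformed lines, and do not say that replicates were separate cultures, so p-values measure a spread that may be technical. The library numbers formed 3 runs, one for the ACR4, SCR, CO2 and 35S lines together, another for the SHR line and the last for the WER line. When lines are compared, the SHR and WER lines therefore cannot be told apart from their runs of numbers. In such tissue samples fewer cells of a type and less RNA per cell cannot be told apart.

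Totals ran from 2868803 to 13575556 counts per library, deepest in the WER line and shallowest in the SHR line. HYL1 (AT1G09700) was lower in hyl1 by a mean log2 fold change of −1.67 over the 6 lines (SE 0.34, edgeR adjusted p = 0.00185). The genes of the ACR4, SHR and SCR promoters had their highest normalised counts (CPM, scaled by library size) in the lines named for them, whereas the CO2 gene (AT1G62500) reached at most 2.58 CPM in any library. The WER gene (AT5G14750) was at least as high in the Col0 ACR4 line, at 39.5 and 45.6 CPM, as in the Col0 WER line, at 19.0 and 45.3 CPM, and had 4.24 and 18.5 CPM in the hyl1 WER line. Replicates correlated across genes at 0.926 to 0.975, except those of the hyl1 WER group at 0.752. The Col0 SCR replicates and hyl1 ACR4 replicate 2 also stood apart in the mitochondrial counts described below.

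Mitochondrial transcripts took 0.447% to 15.01% of a library, a 33.6-fold range. In the ACR4 line they took 5.62% and 15.01% of the hyl1 libraries, against 2.56% and 2.37% of the Col0 libraries. In the WER line they took 8.42% and 9.02% of the hyl1 libraries, against 2.09% and 1.47% of the Col0 libraries. In the SCR line the order was the opposite, with 1.29% and 1.60% of the hyl1 libraries and 4.28% and 5.90% of the Col0 libraries. The groups did not overlap in any of these lines, and the mean share in hyl1 was 4.19-fold that of Col0 for ACR4, 4.91-fold for WER and 0.284-fold for SCR.

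The remaining lines showed smaller differences in this share. The CO2 line had 8.88% and 6.73% in hyl1, against 6.78% and 5.94% in Col0, and the SHR line had 5.94% and 7.29% in hyl1, against 6.85% and 9.21% in Col0. In both of these lines the groups overlapped. The 35S line had the lowest shares of the study, 0.811% and 1.26% in hyl1, against 0.447% and 0.729% in Col0. Counting error was small beside these spreads, since the 95% Wilson intervals were at most 0.0292 percentage points to either side, and they cover counting error only. As a sum over chosen members, the share was not tested.

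**Figure D1:**
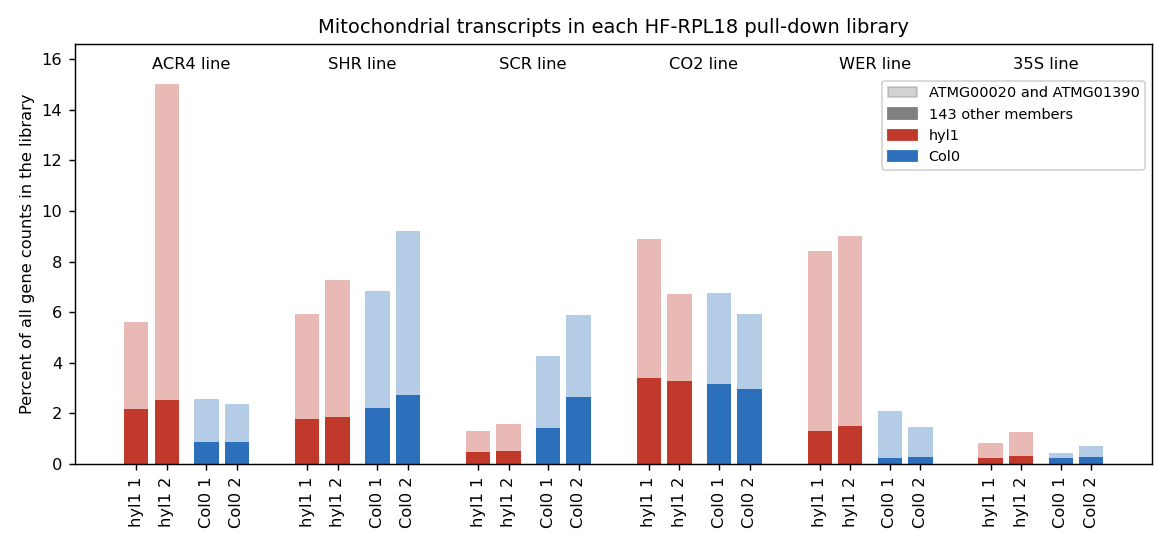
Percent of all gene counts held by mitochondrial transcripts in each of the 24 libraries, hyl1 left of Col0 in each line, with ATMG00020 and ATMG01390 as the pale part and the 143 other members as the dark part of each bar. The hyl1 bars stand above the Col0 bars in the ACR4 and WER lines and below them in the SCR line, and the highest bar, 15.01% in hyl1 ACR4 replicate 2, is mostly pale.

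The reference notes used here give no role for ATMG00020 and ATMG01390, and do not mark which members are ribosomal RNA genes. The part of ribosomal RNA in the shares was therefore not measured. ATMG00020 and ATMG01390 held 71.5% of all member counts, and between 46.6% and 88.5% in single libraries. They took 3.46% and 12.5% of the hyl1 ACR4 libraries, so the higher total of replicate 2 lay mostly in them. The 143 other members were close in those replicates, at 2.16% and 2.51% in hyl1 ACR4, against 0.864% and 0.855% in Col0 ACR4. Without the pair of largest members the 35S groups overlapped, with 0.244% and 0.311% in hyl1 and 0.239% and 0.283% in Col0. The SHR and CO2 groups then no longer overlapped. The SHR line had 1.78% and 1.86% in hyl1, against 2.22% and 2.73% in Col0. The CO2 line had 3.39% and 3.29% in hyl1, against 3.18% and 2.98% in Col0. The other differences remained in direction, with 1.31% and 1.52% in hyl1 against 0.241% and 0.272% in Col0 for the WER line. Across the SCR line the 143 members took 0.468% and 0.516% in hyl1 and 1.43% and 2.63% in Col0, and the Col0 replicates were the least alike.

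Other parts of these libraries moved with the mitochondrial share. Plastid transcripts took 1.09% and 2.25% of the hyl1 ACR4 libraries, against 0.501% and 0.440% in Col0 ACR4, and 3.50% and 3.50% of the hyl1 WER libraries, against 1.95% and 0.467% in Col0 WER. In the SCR libraries they took 0.374% and 0.446% in hyl1, against 0.813% and 1.34% in Col0. The 10 nuclear transcripts most enriched in layer lines over the 35S line took 27.3% and 22.4% of the hyl1 ACR4 libraries, against 5.70% and 6.89% in Col0 ACR4, and 19.7% and 14.5% of the hyl1 WER libraries, against 1.61% and 1.74% in Col0 WER. In the SCR line these 10 took 6.70% and 6.26% in hyl1, against 11.4% and 21.2% in Col0. In the CO2, SHR and 35S lines they differed by at most a few percentage points between genotypes. Their part in the mitochondrial differences was not tested. The 10 were picked from these libraries by their mean level in the layer lines of both genotypes, relative to the 35S line. Their low share in the 35S line is therefore no result. Groups where a transcript was very high weighed more in that mean, so the genotype differences of the 10 may partly reflect the choice.

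Members were then tested one by one with edgeR, with p-values adjusted over all 23219 tested genes and 0.05 as the threshold. In the ACR4 line 55 of 145 members rose in hyl1 and none fell, where 6.29% of all tested genes rose and 8.42% fell. In the WER line 93 rose and 4 fell, where 15.8% of all tested genes rose and 23.3% fell. In the SCR line none rose and 65 fell, where 0.530% of all tested genes rose and 1.37% fell. The median log2 fold change of the members was 1.54 for ACR4, 2.77 for WER and −2.31 for SCR, beside −0.02, −0.24 and −0.01 for all tested genes.

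These counts depended on single libraries to different degrees. The WER count stayed between 85 and 100 when any 1 library was left out, but was 22 of 95 tested members in a fit of the 4 WER libraries alone. The ACR4 count was 30 without Col0 ACR4 replicate 1, 21 without Col0 ACR4 replicate 2 and 27 without hyl1 ACR4 replicate 2, and 83 and 86 without hyl1 WER replicates 1 and 2. It was 95 without the WER line, and 104 in a fit of the 4 ACR4 libraries alone. The SCR count was 30 without Col0 SCR replicate 2, 28 without hyl1 SCR replicate 1 and 35 without hyl1 SCR replicate 2. In a fit of the 4 SCR libraries alone no member passed edgeR's adjusted threshold, 110 of 128 had an unadjusted p under 0.05, and only 1 gene of the whole table was called; the DESeq2 count with all libraries was 77.

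**Figure D2:**
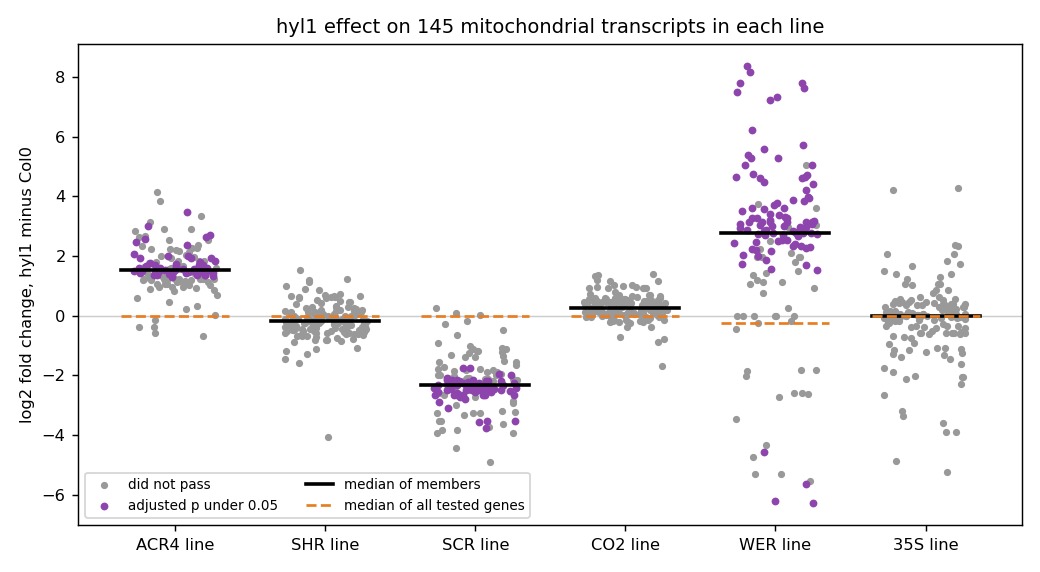
Log2 fold change of each of the 145 members, hyl1 minus Col0, in each line, with members past an adjusted p of 0.05 in purple, the median of the members as a black bar and the median of all tested genes as a dashed orange bar. The member medians stand at 1.54 for ACR4, −2.31 for SCR and 2.77 for WER, and near 0 in the SHR, CO2 and 35S lines. Points of members with a group at 0 are fitted values that depend on the prior count.

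No member passed in the SHR, CO2 or 35S line, in edgeR or in DESeq2. At an unadjusted p under 0.05 edgeR gave 5 members for SHR, 0 for CO2 and 7 for 35S. Of all tested genes 0.0775% rose and 0.00431% fell for SHR, 0.0861% rose and 0.0603% fell for CO2, and 0.0904% rose and 0.00861% fell for 35S. The member medians were −0.19 for SHR, 0.27 for CO2 and 0.00 for 35S, and that for SHR turned to 0.26 without Col0 SHR replicate 2. In a fit of the 4 libraries of the 35S line alone, 2 members rose and 2 fell.

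Among 19 members whose role the reference notes give, 18 rose in the hyl1 ACR4 line and 19 in the hyl1 WER line. In the hyl1 SCR line 18 of them fell. Each of the 19 has a nuclear copy named in these notes, so its counts may hold reads of that copy, as described below. Members without a role in the notes were not sorted by complex, so the groups below may be incomplete. ATMG01190, the alpha subunit of the catalytic head of ATP synthase, had 2784 and 3085 CPM in hyl1 ACR4 against 1131 and 1043 CPM in Col0 ACR4, and 1969 and 2178 CPM in hyl1 WER against 265 and 271 CPM in Col0 WER. Its SCR levels were 363 and 387 CPM in hyl1, against 1517 and 3175 CPM in Col0. None of these pairs of groups overlapped, and the Col0 SCR replicates were far apart. The log2 fold change was 1.43 in the ACR4 line by edgeR (SE 0.28), with an adjusted p of 0.00205. It was 2.95 in the WER line (SE 0.30, adjusted p = 1.9e-06) and −2.64 for SCR (SE 0.30, adjusted p = 9.86e-05). In the lines with no call it had 1708 and 1732 CPM in hyl1 SHR against 2323 and 3478 CPM in Col0 SHR, and 130 and 181 CPM in hyl1 35S against 139 and 177 CPM in Col0 35S. The SHR groups did not overlap but missed the threshold, at −0.75 (SE 0.28, edgeR adjusted p = 0.715), while the 35S groups overlapped.

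The other ATP synthase members changed in the same lines. ATMG00410, the membrane subunit 6-1 that forms the proton path, had 2289 and 2384 CPM in hyl1 ACR4 against 734 and 749 CPM in Col0 ACR4, and 969 and 1262 CPM in hyl1 WER against 94.6 and 131 CPM in Col0 WER. Its level in the SCR line was 350 and 304 CPM in hyl1, against 984 and 2030 CPM in Col0. ATMG00410 had the largest WER effect of the 5 annotated ATP synthase members, 3.31 on the log2 scale (SE 0.32, edgeR adjusted p = 1.2e-06). ATMG00480 (subunit 8) and ATMG01080 (subunit 9, the proton-driven ring) rose by 1.43 and 1.47 in the ACR4 line and by 2.88 and 2.34 in the WER line, and fell by 2.33 and 1.74 in the SCR line. ATMG01090, annotated as ATP synthase 9, rose by 1.34 and 2.83 in the ACR4 and WER lines and fell by 2.66 in the SCR line. All of these values passed edgeR's adjusted threshold.

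The members of the electron transport chain followed the same order of lines. ATMG00220, apocytochrome b of complex III, had 1007 and 1050 CPM in hyl1 ACR4 against 344 and 290 CPM in Col0 ACR4, 150 and 140 CPM in hyl1 SCR against 442 and 983 CPM in Col0 SCR, and 418 and 567 CPM in hyl1 WER against 47.4 and 96.0 CPM in Col0 WER. ATMG00730, subunit 3 of cytochrome c oxidase (complex IV), had 1014 and 1186 CPM in hyl1 ACR4 against 350 and 390 CPM in Col0 ACR4, and 659 and 954 CPM in hyl1 WER against 78.5 and 105 CPM in Col0 WER. It had 123 and 125 CPM in hyl1 SCR, against 400 and 844 CPM in Col0 SCR. For both genes the groups stood apart in each of these lines, with ATMG00730 at 1.57 for ACR4 (SE 0.30), 3.13 for WER (SE 0.32) and −2.33 for SCR (SE 0.31). Apocytochrome b changed by 1.70, 2.78 and −2.30 in the same order of lines. ATMG01280 is annotated as like subunit II of the oxidase. It had the smallest WER effect of the 11 annotated respiratory chain and ATP synthase members, at 2.28 (SE 0.29, edgeR adjusted p = 1.41e-05).

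Of the 3 annotated complex I genes, which encode parts of the membrane arm of NADH dehydrogenase, ATMG01320 is given in full. It had 267 and 303 CPM in hyl1 ACR4 against 101 and 87.7 CPM in Col0 ACR4, 42.8 and 55.1 CPM in hyl1 SCR against 191 and 389 CPM in Col0 SCR, and 117 and 197 CPM in hyl1 WER against 18.0 and 22.2 CPM in Col0 WER. The groups were separate in all 3 lines, at 1.60, −2.57 and 2.96 on the log2 scale. ATMG00990 and ATMG01275 changed by 1.36 and 1.41 in the ACR4 line, −2.38 and −2.67 in the SCR line and 2.71 and 2.29 in the WER line. All 9 of these fitted values passed edgeR's adjusted threshold.

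Genes for cytochrome c maturation, which carry and attach haem, changed in these lines too. ATMG00180 had 209 and 211 CPM in hyl1 ACR4 against 79.3 and 74.9 CPM in Col0 ACR4, 55.03 and 65.8 CPM in hyl1 SCR against 152 and 390 CPM in Col0 SCR, and 130 and 191 CPM in hyl1 WER against 14.0 and 26.3 CPM in Col0 WER. Its groups did not overlap in these lines, and it changed by 1.45, −2.17 and 2.99. ATMG00900 and ATMG00960 also rose in the ACR4 and WER lines and fell in the SCR line, ATMG00900 by 1.35 and 2.22 upward and 2.43 downward. The ACR4 calls of ATMG00180 and ATMG00900, and that of ATMG00990 of complex I, were each lost without any 1 of the 4 ACR4 libraries. The values in those fits were 1.40 to 1.48 for ATMG00180, 1.11 to 1.55 for ATMG00900 and 1.27 to 1.44 for ATMG00990.

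Mitochondrial ribosomal protein genes were the group with an exception. ATMG00290, ribosomal protein S4, had 290 and 276 CPM in hyl1 ACR4 against 108 and 86.4 CPM in Col0 ACR4, and 71.8 and 83.4 CPM in hyl1 SCR against 208 and 465 CPM in Col0 SCR. These groups did not overlap, yet edgeR's threshold was missed in the ACR4 line, at 1.54 (SE 0.57) with an adjusted p of 0.0829, and in the SCR line, at −2.11 (SE 0.58) with an adjusted p of 0.0804. Its Col0 WER replicates were far apart, at 4.22 and 30.8 CPM, below 163 and 360 CPM in hyl1 WER, where it rose by 3.89 (SE 0.63, adjusted p = 0.000143). ATMG00560, a protein of the L2 family, had 316 and 345 CPM in hyl1 ACR4 against 109 and 103 CPM in Col0 ACR4, and 373 and 436 CPM in hyl1 WER against 69.2 and 49.2 CPM in Col0 WER. It rose by 1.65 and 2.77 in these lines, and it fell by 2.49 in the SCR line. ATMG00210 (L5), ATMG00980 (S12 family) and ATMG01270 (S7) rose in the ACR4 and WER lines and fell in the SCR line as well.

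Leaving out libraries removed some of these calls. Of the 18 role members that rose in the ACR4 line, 11 and 9 kept the call without Col0 ACR4 replicates 1 and 2, and 15 and 9 without hyl1 ACR4 replicates 1 and 2. Of the 18 that fell in the SCR line, 12 kept it without Col0 SCR replicate 2, 12 and 15 without hyl1 SCR replicates 1 and 2, and none in the fit of that line alone. All 19 that rose in the WER line kept it without any single library, and 9 kept it in the fit of that line alone. The gene of the ACR4 promoter, CR4 (AT3G59420), was also higher in the hyl1 ACR4 line, by 2.71 on the log2 scale (SE 0.28, edgeR adjusted p = 1.47e-05). The part of this difference between the ACR4 lines in the mitochondrial values was not tested.

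The members with most counts behaved less evenly between replicates. ATMG00020 had 20196 and 73273 CPM in hyl1 ACR4 against 9065 and 7808 CPM in Col0 ACR4, and 52739 and 60734 CPM in hyl1 WER against 13043 and 7437 CPM in Col0 WER. ATMG01390 had 19046 and 81924 CPM in hyl1 ACR4 against 8111 and 7332 CPM in Col0 ACR4, and 40407 and 44633 CPM in hyl1 WER against 8348 and 4750 CPM in Col0 WER. In both genes hyl1 ACR4 replicate 2 was far above replicate 1, and all hyl1 libraries of these lines were above the Col0 libraries. ATMG00020 rose by 2.47 in the ACR4 line (SE 0.53, edgeR adjusted p = 0.00362) and by 2.47 in the WER line (adjusted p = 0.00141), and ATMG01390 by 2.71 (SE 0.55, adjusted p = 0.00239) and 2.70. Without hyl1 ACR4 replicate 2 the ACR4 calls were lost, at an edgeR adjusted p of 0.151 for ATMG00020 and 0.118 for ATMG01390, and that of ATMG00020 also without Col0 ACR4 replicate 2 (0.0506). In the SCR line ATMG00020 fell by 2.08 (SE 0.52, adjusted p = 0.0467), a call lost in 16 alternatives, among them leaving out hyl1 SCR replicate 1 (adjusted p = 0.488). ATMG01390 missed the threshold there, at −1.77 (SE 0.53, adjusted p = 0.124). Both WER calls were lost in a fit of the WER libraries alone. The edgeR adjusted p was then 0.134 for ATMG00020 and 0.107 for ATMG01390.

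ATMG00030, another member with no role in these notes, was likewise higher in hyl1 ACR4 replicate 2 than in replicate 1. It had 3100 and 8331 CPM in hyl1 ACR4 against 1147 and 1089 CPM in Col0 ACR4, and 5179 and 5508 CPM in hyl1 WER against 1190 and 687 CPM in Col0 WER. All hyl1 libraries of these lines were above the Col0 libraries. ATMG00030 made up 6.70% of the counts of the 143 other members in Col0 35S replicate 1 and 42.6% in Col0 WER replicate 1. ATMG01170, also without a role in these notes, was among the members with the smallest p for a difference of the hyl1 effect between lines. It had 1752 and 1857 CPM in hyl1 ACR4 against 558 and 569 CPM in Col0 ACR4, and 731 and 1026 CPM in hyl1 WER against 65.5 and 102 CPM in Col0 WER. The members ATMG00170 and ATMG00620 had equal counts in 22 of 24 libraries, as had ATMG00430 and ATMG01150, so the members of each pair cannot be told apart.

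Members outside the role groups fell in the SCR line as well. ATMG00690 had 27.7 and 40.1 CPM in hyl1 SCR against 158 and 342 CPM in Col0 SCR, a change of −2.88 (SE 0.38, edgeR adjusted p = 0.000306). ATMG01220 had 3.81 and 3.17 CPM in hyl1 SCR, against 14.95 and 44.5 CPM in Col0 SCR. Both were far lower in every hyl1 library than in any Col0 library of that line. In the WER line 4 members fell, ATMG00100, ATMG00700, ATMG01340 and ATMG01400, all of them without a count in either hyl1 WER library. ATMG00700 had 0.867 and 1.77 CPM and ATMG01340 had 1.73 and 1.10 CPM in Col0 WER. ATMG00910, among the largest rises there, had 12.6 and 12.9 CPM in hyl1 WER, against 0 and 0.0844 CPM in Col0 WER.

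Many members lacked counts in some libraries. Between 97 and 145 members had at least 1 count in a library, with the fewest in the WER line, at 116 and 97 in hyl1 and 104 and 109 in Col0. The CO2 line had 145 and 145 in hyl1, and 144 and 145 in Col0, although the WER libraries were more deeply sequenced. The 35S line had 120 and 130 in hyl1 and 123 and 135 in Col0. Over the whole count table the hyl1 WER libraries had counts for 25475 and 22330 genes, the fewest of all libraries. The Col0 WER libraries had counts for 27359 and 28587 genes. Low-count members therefore rest on few reads in the WER and 35S lines, and fold changes against groups at 0 are not given in the text.

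Averaged over the 6 lines, 20 of 145 members rose in hyl1 and none fell, where 7.84% of all tested genes rose and 19.8% changed in either direction. The member median was 0.28, beside −0.07 for all tested genes. Of the 19 role members only ATMG00410 was among the 20, at 0.41 (SE 0.12, edgeR adjusted p = 0.0202), with ATMG01170 at 0.44, ATMG00020 at 0.72 (SE 0.21, adjusted p = 0.0179) and ATMG01390 at 0.88 (SE 0.21, adjusted p = 0.0062). Among the called members the largest mean rises were in ATMG01380, at 1.63 (SE 0.46), ATMG00910, at 1.32 (SE 0.42), and ATMG00300, at 1.09 (SE 0.29). ATMG01380 had 10 or more counts in only 13 libraries and ATMG00910 in 16. ATMG00910 was almost absent from the Col0 WER libraries, so its mean depends in part on the prior count. The mean effect of hyl1 on the members rested on the WER line. Without its 4 libraries no member rose, 5 fell, and the member median turned to −0.15. ATMG00410 then had a mean of −0.16.

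Single libraries also moved the count of 20. It was 12 without hyl1 35S replicate 2 or Col0 SHR replicate 1, and 13 without Col0 ACR4 replicate 2, hyl1 ACR4 replicate 2, Col0 CO2 replicate 2 or hyl1 CO2 replicate 1. It was 31 without Col0 WER replicate 2, 32 and 39 without hyl1 WER replicates 2 and 1, and 45 without Col0 SCR replicate 2.

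The difference of the hyl1 effect between lines was tested directly. It passed for 84 of 145 members, where 17.8% of all tested genes passed, and the count lay between 76 and 112 when any 1 library was left out. All 19 role members passed, with the smallest adjusted p for ATMG01190 (edgeR adjusted p = 3.84e-06) and ATMG00480 (3.86e-06). Both genes rose in the ACR4 and WER lines and fell in the SCR line, with no call in the SHR, CO2 and 35S lines. ATMG00020 and ATMG01390 passed at 0.00191 and 0.00181.

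Layer lines had higher mitochondrial counts than the 35S line in both genotypes. In Col0 79 members were higher in the mean of the 5 layer lines and none was lower, with a member median of 2.33, where 9.79% of all tested genes were higher and 9.17% lower. In hyl1 89 were higher and none lower, with a median of 2.86, where 8.70% of all tested genes were higher and 10.2% lower. All 19 role members were higher in both, ATMG01190 by 3.23 in Col0 (SE 0.28, edgeR adjusted p = 2.47e-07) and by 3.47 in hyl1 (SE 0.28, adjusted p = 2.24e-07). The Col0 count was 125 without the WER line. The Col0 WER line stood lowest of the Col0 layer lines: ATMG00410 had 94.6 and 131 CPM in Col0 WER, against 119 and 169 CPM in Col0 35S, and the groups overlapped.

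The wild-type lines also differed among themselves, for 128 of 145 members in a test over the 6 Col0 lines, where 38.8% of all tested genes passed. In hyl1 the count was 122, where 43.2% of all tested genes passed. As 1 example, in Col0 ATMG01190 had 3679 and 3727 CPM in CO2 and 2323 and 3478 CPM in SHR. It had 1517 and 3175 CPM in SCR and 1131 and 1043 CPM in ACR4. In WER it had 265 and 271 CPM, and in 35S 139 and 177 CPM. For this member the SHR and SCR replicates overlapped, and the ACR4, WER and 35S groups each stood apart from their neighbours. The 143 other members together took 0.241% and 0.272% in Col0 WER, which overlapped with 0.239% and 0.283% in Col0 35S. In hyl1 the CO2 line was again highest, at 3675 and 3939 CPM, followed by 2784 and 3085 CPM in ACR4, 1969 and 2178 CPM in WER, 1708 and 1732 CPM in SHR, 363 and 387 CPM in SCR and 130 and 181 CPM in 35S. No neighbours in that order overlapped.

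Each layer line was also set against the mean of the 4 other layer lines of its genotype. In the CO2 line 99 members were higher in hyl1 and 105 in Col0, and none was lower, where 4.32% of all tested genes were higher and 1.48% lower in hyl1, and 5.66% higher and 4.44% lower in Col0. For SCR, 1 member was higher and 76 were lower in hyl1, where 13.0% of all tested genes were higher and 8.47% lower. In Col0 52 members were higher in the SCR line and none lower, where 5.17% were higher and 1.34% lower. In the WER line 7 members were higher and 34 lower in hyl1, where 16.8% were higher and 20.0% lower, and 113 were lower in Col0, where 14.9% were higher and 11.8% lower. The WER line entered the mean for the other layers, and without that line the Col0 SCR count was 6 and the Col0 ACR4 count of members lower was 127.

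The ACR4 and SHR contrasts also moved with single libraries. In the ACR4 line 18 members were higher in hyl1, where 2.39% of all tested genes were higher and 0.719% lower, and 25 were lower in Col0, where 8.58% were higher and 3.76% lower. In the SHR line 15 members were higher in hyl1, where 7.15% were higher and 3.86% lower, and 67 in Col0, where 9.60% were higher and 9.52% lower. Without hyl1 ACR4 replicates 1 and 2 the hyl1 ACR4 count was 7 and 1, and 38 without hyl1 WER replicate 1. The Col0 ACR4 count was 4 and 1 without Col0 ACR4 replicates 1 and 2, 38 without Col0 SCR replicate 1 and 53 without either hyl1 WER library. The hyl1 SHR count was 2 without either hyl1 SHR library, 9 without hyl1 ACR4 replicate 1, 8 without hyl1 CO2 replicate 2, and 35 and 28 without hyl1 WER replicates 1 and 2; the Col0 SHR count was 12 without Col0 SHR replicate 2 and 19 without the WER line.

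Of the other layer contrasts, several also moved with 1 library. The Col0 SCR count was 3 without Col0 SCR replicate 2, and 86 and 89 without hyl1 WER replicates 1 and 2. The Col0 CO2 count was 65 without Col0 CO2 replicate 1, and the hyl1 CO2 count was 59 and 61 without hyl1 CO2 replicates 1 and 2. The hyl1 WER count of 41 was 74 without hyl1 WER replicate 1.

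Outside ATMG00020 and ATMG01390, members with enough counts in every library kept their proportions far more than their level. The counts of ATMG00020 and ATMG01390 together were 0.873 times those of the 143 others in Col0 35S replicate 1. In Col0 WER replicate 1 they were 7.66 times those of the others. Outside the pair of largest members, 59 had 10 or more counts in every library, and the log2 share of the library had a median SD of 1.51 over the 24 libraries for them. The log2 share among the counts of the 143 other members had a median SD of 0.47. ATMG01280 (0.20), ATMG01190 (0.23), ATMG00730 (0.25) and ATMG00480 (0.26) had the smallest SD among themselves, whereas ATMG01120 (0.99), ATMG00330 (0.88) and ATMG00290 (0.78) had large ones. ATMG01190 held between 7.20% and 12.9% of these counts in every library, in which its CPM spanned 130 to 3939. As shares of a sum these values are not independent of each other, and they are given without a test.

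**Figure D3:**
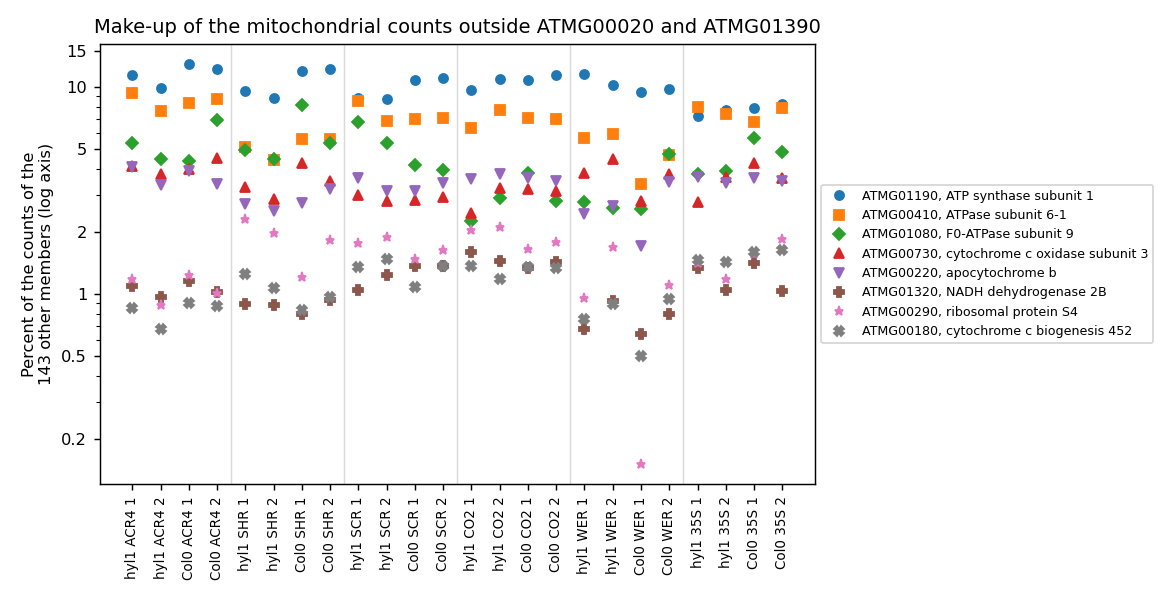
Percent of the counts of the 143 other members held by 8 annotated members in each library, on a log axis, with hyl1 left of Col0 in each line. ATMG01190 stays between 7.20% and 12.9% throughout, while ATMG00290 drops to 0.151% in Col0 WER replicate 1.

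A part of these genes has a second copy in the nucleus. RefSeq notes name 55 genes on chromosome 2 as copies of 53 members, among them all 19 members with a role used here. The sequences of the 55 copies matched the mitochondrial genome at 99.03% identity or more, with 27 of them identical over their whole length. The 53 members held 1019792 counts and the 55 nuclear copies 1197175. For ATMG00480 and AT2G07707 the counts were 63429 and 63691, and between 49.6% and 50.1% of their sum lay on the member in every library. Of the 55 pairs, 34 had 40% to 60% of their counts on the member, and the extremes were 2.05% and 89.5%. The summed counts of the copies were 1.11 to 1.22 times those of their members in all 24 libraries. Reads from such near-identical pairs cannot be told apart with these counts. The sources used here do not say how multiply matching reads were counted.

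Nuclear copies passed the test in the same lines as members. In hyl1 29 of 55 copies rose in the ACR4 line, 31 fell in the SCR line, and 41 rose and 1 fell in the WER line. Of all tested genes 6.29% rose in the ACR4 line, 1.37% fell in the SCR line, and 15.8% rose and 23.3% fell in the WER line. Without 1 ACR4 library the ACR4 count was 12 to 17, and the SCR count was 17 without Col0 SCR replicate 2 and 15 without hyl1 SCR replicate 1. Fits of a line alone called 45 of 52 copies in the ACR4 line, 12 of 45 in the WER line and none of 53 in the SCR line, with medians of 1.51, 3.10 and −2.39. The copies took 1.16% and 1.15% of the hyl1 ACR4 libraries, against 0.474% and 0.480% in Col0 ACR4, and 0.250% and 0.265% of the hyl1 SCR libraries, against 0.746% and 1.43% in Col0 SCR.

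**Figure D4:**
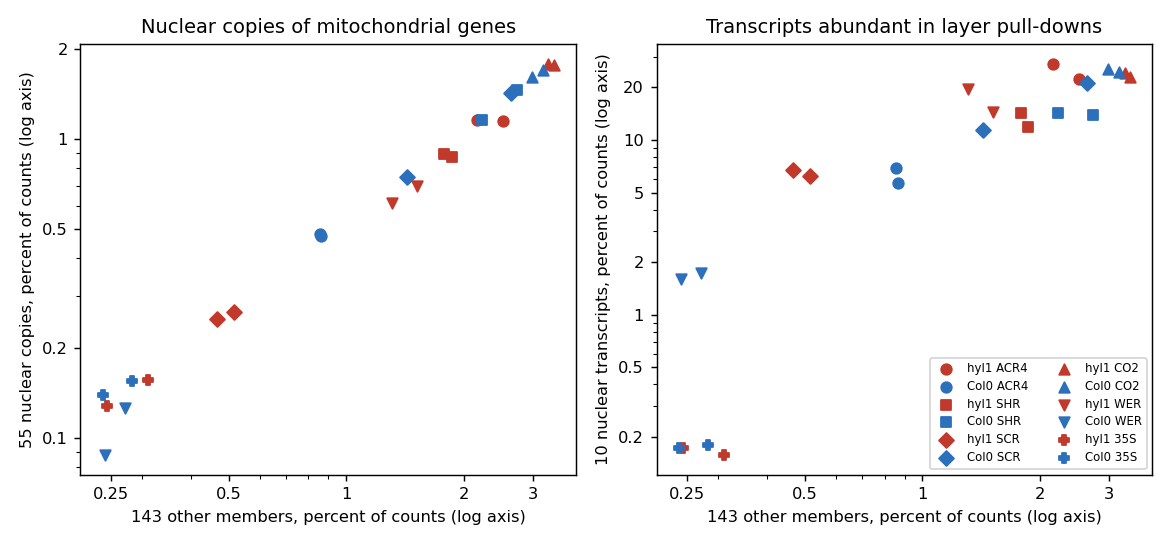
Share of each library in the 55 nuclear copies (left) and in the 10 nuclear transcripts most enriched in layer lines (right) against the share in the 143 other members, on log axes, with hyl1 in red and Col0 in blue and 1 symbol for each line. The copies lie along 1 line with the members in all 24 libraries, and the 10 transcripts are at most 0.181% in the 35S libraries and between 1.61% and 27.3% in the layer libraries.

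Nuclear genes for the same complexes gave other values. A list of 51 nuclear genes for respiratory chain, cytochrome c and ATP synthase subunits took 0.621% to 1.37% of a library, a 2.21-fold range. In the WER line 38 of the 51 fell in hyl1 and 2 rose, where 23.3% of all tested genes fell and 15.8% rose. Their median was −0.90. The 11 members that the notes place in these complexes all rose in that line, by 2.28 to 3.31. Members without a role in the notes were not sorted by complex. In the ACR4 line 15 of the 51 fell and none rose, with a median of −0.54, where 8.42% of all tested genes fell and 6.29% rose, while the 11 rose by 1.34 to 1.70. For SCR, no nuclear gene passed in edgeR or DESeq2 (1 at an unadjusted p under 0.05), with a median of 0.07, while the 11 fell by 1.74 to 2.67. As an average over the 6 lines 25 of the 51 fell in hyl1, where 7.84% of all tested genes rose and 19.8% changed in either direction. The count was 7 without the WER line, 16 without a filter on low counts and 0 with the 35S, SHR and CO2 lines only.

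The nuclear genes called were in several complexes. EMB1467 (AT5G37510), a subunit of complex I, had 150 and 156 CPM in hyl1 ACR4 against 456 and 420 CPM in Col0 ACR4, a fall of 1.52 (SE 0.21, edgeR adjusted p = 0.000143). AT5G08670, AT5G08680 and AT5G08690, near-identical genes for the beta subunit of ATP synthase between which reads may be shared, fell by 1.37, 1.32 and 1.20 in the ACR4 line. CYTC-1 (AT1G22840), which encodes cytochrome c, had 86.4 and 58.0 CPM in hyl1 WER against 216 and 191 CPM in Col0 WER, a fall of 1.49 (SE 0.22). These groups did not overlap. AT5G61310, of the complex IV list, had no count in either hyl1 WER library, against 4.33 and 12.8 CPM in Col0 WER. SDH1-1 (AT5G66760) of complex II, at 0.82, and ATP3 (AT2G33040), the gamma subunit of ATP synthase, at 1.82, rose in the hyl1 WER line; ATP3 had 1972 and 5163 CPM there, against 1088 and 929 CPM in Col0 WER. The ACR4 count was 8 without hyl1 ACR4 replicate 1, 26 with library totals alone in place of TMM factors and 27 in a fit of that line alone, and in a fit of the 4 WER libraries alone none of the 51 passed.

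**Figure D5:**
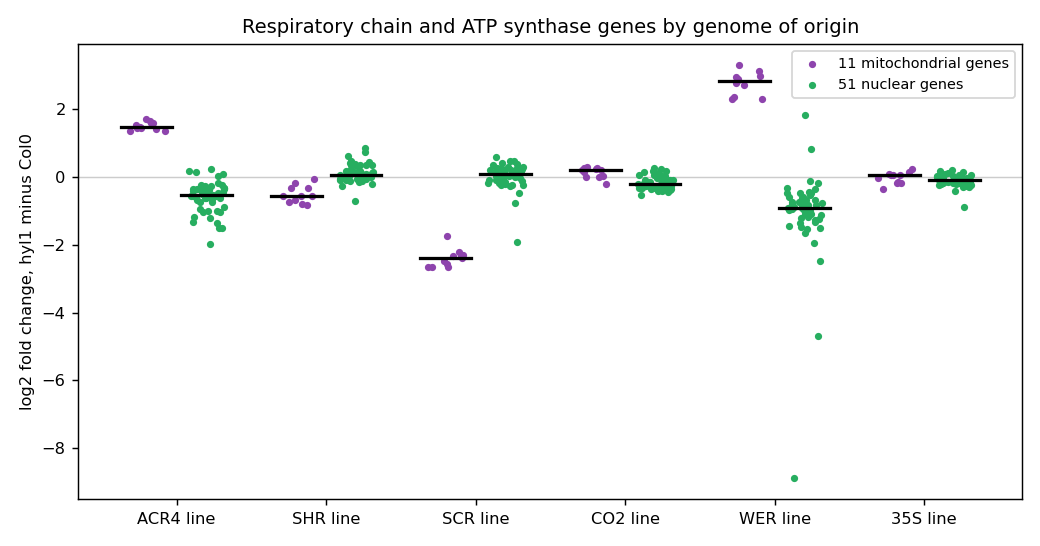
Log2 fold change, hyl1 minus Col0, in each line for 2 sets of genes, with the median of each set as a black bar. The sets are the 11 members annotated to the respiratory chain or ATP synthase and 51 nuclear genes for their subunits. The mitochondrial median stands above the nuclear one in the ACR4 and WER lines (1.47 and 2.83) and below it in the SCR line (−2.38).

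The 3 phage-type RNA polymerases of the organelles, encoded in the nucleus, rose in the hyl1 WER line, also without any single library. MGP3 (AT1G68990), the mitochondrial enzyme, had 104 and 254 CPM in hyl1 WER against 41.2 and 48.4 CPM in Col0 WER. SCA3 (AT2G24120), an enzyme of plastids, had 179 and 259 CPM there, against 42.2 and 40.2 CPM in Col0 WER. The groups did not overlap, and MGP3, SCA3 and AT5G15700, which serves both organelles, rose by 2.00, 2.41 and 2.34. Of all tested genes 15.8% rose in that line. The 3 polymerases were also higher in the layer lines than in the 35S line in Col0, by 1.99, 2.55 and 2.70, where 9.79% of all tested genes were higher. In the ACR4 line none passed in edgeR and 2 did in DESeq2 and at an unadjusted p under 0.05, with values of 0.36 to 1.33. The SCR values ran from −1.42 to −0.47, with none past the threshold in edgeR or DESeq2 and 2 at an unadjusted p under 0.05. In the mean over the 6 lines 7.84% of all tested genes rose in hyl1. As an average over the 6 lines all 3 rose, with a median of 0.58, but none did without the WER line, and 0 to 3 were called when 1 library was left out.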

How the data were processed

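RNA from HF-RPL18 pull-downs of 24 root libraries was analysed. The deposited values are raw counts of reads per gene, not normalised. Per the submitters' processing notes they came from featureCounts (Subread) after CASAVA 1.8.2, TopHat2 2.0.11 and Bowtie2 2.2.1.0 on the TAIR10 genome; no source used here gives the use of strand, and overlapping and antisense genes may share reads. Symbols and roles came from RefSeq TAIR10.1 (32835 identifiers matched, 97.7%), and mitochondrial roles from its notes on chromosome 2 copies, which were aligned to the mitochondrial genome with BLAST. Groups and replicates came from the sample titles.

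Counts were tested with edgeR 4.0.16 (R 4.3.3), by the quasi-likelihood F test with TMM scaling on 12 groups, after filterByExpr (minimum count 10, minimum total 15). P-values were adjusted by the Benjamini-Hochberg method across 23219 genes. CPM use TMM-scaled totals and are not divided by gene length, so levels of different genes are not compared. Libraries held 2868803 to 13575556 counts. The test was checked on simulated counts. Alternatives were DESeq2 1.42.0, other scalings and filters, left-out libraries and lines, and replicate numbers as a block.

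The members, lists and comparisons were chosen with earlier results of these data known, and lists get no test of their own. Named were the 3 members of each role with most counts and, for each main comparison, the called members that changed most, at most 6 in each direction, with nuclear genes chosen likewise in each list; ATMG00030 in the account of shares, ATMG00170, ATMG00620, ATMG00430 and ATMG01150 as equal pairs, and members named for the smallest or largest value in a list were named after their values were seen. The planned share without ribosomal RNA genes was replaced by one without ATMG00020 and ATMG01390. Correlations of deviations between libraries with the same replicate number ran from −0.09 to 0.07 over the 6 lines, so the numbers do not pair samples.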

Additional observations from a re-analysis of the deposited data

Results flagged for a closer look

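The effect of hyl1 differed between the 6 lines for 84 of the 145 members by edgeR's quasi-likelihood F test of that difference. In the ATP synthase group the edgeR adjusted p was 3.84e-06 for ATMG01190, 3.86e-06 for ATMG00480, 4.9e-06 for ATMG00410, 1.34e-05 for ATMG01090 and 4.67e-05 for ATMG01080. For the electron transport chain the edgeR adjusted p was 6.49e-06 for ATMG00730, 8.5e-06 for ATMG01320, 8.71e-06 for ATMG01280, 2.77e-05 for ATMG00220, 5.48e-05 for ATMG00990 and 0.000116 for ATMG01275. Cytochrome c maturation genes had an edgeR adjusted p of 6.71e-05 (ATMG00180), 0.000168 (ATMG00960) and 0.000316 (ATMG00900). Ribosomal protein genes had 1.06e-05 (ATMG00560), 1.69e-05 (ATMG00210), 0.000225 (ATMG00980), 0.000722 (ATMG01270) and 0.00156 (ATMG00290). ATMG00020 and ATMG01390 had 0.00191 and 0.00181. Their fitted changes were positive for ACR4 and WER and negative for SCR. No group had 4 or more libraries, so no library could be tested as an outlier of its group.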

How the results depend on the processing

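Scalings, filters and DESeq2 left the direction of the member medians unchanged in the comparisons with calls, and changed only 1 count of members called by over 1.5 times, Col0 ACR4 against other layers, to 50 in DESeq2. Without the WER line the counts became 5 for the mean hyl1 effect (median −0.15), 95 for hyl1 in the ACR4 line, 125 for Col0 layers over 35S, 127, 6 and 19 for Col0 ACR4, SCR and SHR against other layers, and 121 for hyl1 SCR against other layers. With the 35S, SHR and CO2 lines only, the mean effect had 3 calls, and ATMG00410, ATMG00620 and ATMG00170 turned to −0.10, −0.24 and −0.24; without the WER line ATMG00410 turned to −0.16. Fits of a line alone gave 4 calls in the 35S line, 104 in ACR4, 0 in SCR and 22 in WER. The log2 ratio of hyl1 to Col0 shares in the 35S line was 0.0847 without ATMG00020 and ATMG01390. The causes of these changes were not tested. Leaving out 1 library gave 12 to 45 calls for the mean effect, 21 to 86 for ACR4, 28 to 83 for SCR, 85 to 100 for WER, 0 in each of the 35S, CO2 and SHR lines, 76 to 112 for the difference between lines, 114 to 137 over Col0 lines, 112 to 139 over hyl1 lines, and 56 to 96 and 66 to 103 for layers over 35S in Col0 and hyl1. For each layer against the others it gave, in hyl1, 1 to 38 (ACR4), 59 to 101 (SCR), 59 to 127 (CO2), 2 to 35 (SHR) and 34 to 74 (WER), and in Col0 1 to 53, 3 to 89, 65 to 119, 12 to 92 and 93 to 126 in that order. The log2 share ratio ranged over 1.19 to 2.61 (ACR4), −2.04 to −1.58 (SCR), 0.09 to 0.49 (CO2), −0.48 to −0.06 (SHR), 2.06 to 2.57 (WER) and 0.47 to 1.18 (35S). With the replicate number as a block the counts were 28 for the mean effect, 57 for ACR4, 57 for SCR and 91 for WER, none moved by over 1.5 times. Library totals in place of TMM factors moved the median of all genes to −0.56 in the WER line, −0.26 in ACR4 and 0.24 in SCR. With 2 libraries a group, members with few counts in the WER and 35S lines limit what can be called.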

Other observations

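A list of 10 nuclear genes of the mitochondrial stress response, 9 of them tested, held AOX1A (AT3G22370), the alternative oxidase, and NDB2 (AT4G05020), an external NADH dehydrogenase. In hyl1 5 of the 9 fell in the WER line and 2 in the ACR4 line, and none rose in either; the ACR4 count was 0 to 2 when 1 library was left out. Of all tested genes 23.3% fell in the WER line and 8.42% in the ACR4 line. AOX1A fell by 0.86 in the WER line (SE 0.21, edgeR adjusted p = 0.00371) and by 0.94 in the ACR4 line (SE 0.21, adjusted p = 0.00526), and NDB2 by 1.22 and 0.94. In the SHR line AOX1A had a value of the other sign, 1.09 (SE 0.23, edgeR adjusted p = 0.107), which did not pass; none of the 9 passed there in edgeR and 1 did in DESeq2, 4 had an unadjusted p under 0.05, and 0 to 1 passed when 1 library was left out. AOX1A and NDB2 were higher in the Col0 layer lines than in the Col0 35S line, with AOX1A higher by 0.53 (SE 0.17, edgeR adjusted p = 0.037), NDB2 higher by 0.87 with an SE of 0.16 and an adjusted p of 0.000803, and the list's count in that comparison was 0 to 2 when 1 library was left out.

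The ratio of plastid to mitochondrial counts was 0.150 to 0.290 in the ACR4, SHR, SCR and CO2 libraries, with 0.245 to 0.275 in the hyl1 and 0.265 to 0.445 in the Col0 35S libraries. In the WER line it was 0.416 and 0.388 in hyl1, against 0.933 and 0.319 in Col0, so Col0 WER replicate 1 had the highest ratio of the study. The ratio of ATMG01390 to ATMG00020 was 0.766 and 0.735 in hyl1 WER, against 0.640 and 0.639 in Col0 WER.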
